A study of Mus musculus with 8 samples.

Results

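The miR-30 family was followed in CD8+ T cells (cytotoxic lymphocytes) from the spleens of newborn and grown mice. The 8 members were chosen by name, as the rows of the deposited count table that read mmu-miR-30a-5p, mmu-miR-30b-5p, mmu-miR-30b-3p, mmu-miR-30c-5p, mmu-miR-30d-5p, mmu-miR-30d-3p, mmu-miR-30e-5p and mmu-miR-30e-3p (mmu, for mouse, is left out of most names below), each summed over its precursors. They are 8 of 1978 mature microRNAs (miRNAs) in the table, of which 1036 had a count. Libraries of small RNA came from neonatal C57BL/6 mice of 5 to 7 days of age (n = 4) and from adult C57BL/6 mice of 12 weeks (n = 4), an inbred laboratory strain, with no genetic change or treatment named for either group. The cells had been enriched from spleen with magnetic beads against CD8a, and the comparison asked which miRNAs differ with age. Neither pooling of animals nor separate animals is stated in the labels, so that p-values measure the spread between these libraries, which may be technical.

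miRNAs are cut from hairpin precursors, each of which gives a 5p and a 3p arm, and an arm loaded into an Argonaute protein represses messenger RNAs that pair with its seed, bases 2 to 8. In the miR-30 family the 5p arm is usually the guide, and the 3p arm the passenger that is mostly degraded, with miR-30e-3p and miR-30a-3p known as frequent exceptions. Known targets of the 5p seed include Prdm1, which encodes the regulator Blimp-1 of lymphocyte differentiation, Becn1 of autophagy and, in endothelium, the Notch ligand gene Dll4.

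The mature sequences of the 5p arms are shown because 1 seed is shared by the guide arms. They are given 5′ to 3′ from RefSeq (GRCm38.p6), with the seed in capitals, and 4 of the 8 members matched an entry there.
miR-30a-5p: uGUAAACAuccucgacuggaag
miR-30c-5p: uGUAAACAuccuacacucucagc
miR-30e-5p: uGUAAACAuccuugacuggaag

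Counting positions from 1 at the 5′ end, miR-30e-5p differs from miR-30a-5p at 1 position outside the seed, C13U, and miR-30c-5p at 5, C13A, G14C, G18C, G19U and A20C, besides 1 more base at its 3′ end. The remaining mature miRNA in that table with this seed, miR-384-5p, was at 0 counts in all 8 libraries, against a floor of 3 counts that equals 1.15 to 2.34 CPM (counts scaled to a library of 1e+06) by a library's total. The 3p arms fall into other seed groups, UUUCAGU for miR-30e-3p and miR-30a-3p, which differ by A18G, and UGGGAGA for miR-30c-1-3p and miR-30c-2-3p.
miR-30e-3p: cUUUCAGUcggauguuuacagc
miR-30a-3p: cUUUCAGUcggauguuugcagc
miR-30c-1-3p: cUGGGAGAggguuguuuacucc
miR-30c-2-3p: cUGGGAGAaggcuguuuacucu

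The genes lie in 3 neighbouring pairs (GRCm38, the assembly of mm10). miR-30e and miR-30c-1 lie 2983 bases apart in intronic sequence of Nfyc, which encodes a subunit of the transcription factor NF-Y, at 120772606 to 120772697 and 120769534 to 120769622 on the minus strand of chromosome 4. miR-30a and miR-30c-2 lie 19361 bases apart on the plus strand of chromosome 1, at 23272269 to 23272339 and 23291701 to 23291784, the second in an exon of the noncoding gene Gm27028. miR-30b and miR-30d lie 3697 bases apart on chromosome 15, in exons of noncoding transcripts. The hairpin of miR-30e, whose arms were the closest in level among the 4 hairpins tested, and that of miR-30c-1 from the same host gene, are shown with both mature arms in capitals.
miR-30e hairpin: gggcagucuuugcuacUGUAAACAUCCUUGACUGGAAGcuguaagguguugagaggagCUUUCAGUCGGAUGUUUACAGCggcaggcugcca
miR-30c-1 hairpin: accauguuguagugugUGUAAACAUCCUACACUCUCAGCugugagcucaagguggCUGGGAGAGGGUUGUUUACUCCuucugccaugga

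Library totals were 1454422 to 2416060 counts in neonatal and 1281033 to 2606637 in adult libraries. Levels below are CPM scaled by TMM (trimmed mean of M-values, a factor per library taken from most of its miRNAs), given as mean ± SD of 4 libraries. T cell and lymphocyte miRNAs (miR-150-5p, both miR-142a arms, miR-181a-5p and miR-342-3p) were abundant in all libraries, at a summed 72879 to 75645 CPM in neonatal libraries and 143431 to 209981 CPM in adult ones. By the test described below 4 of these 5 fell. With RLE or upper quartile scaling in place of TMM 4 fell and 1 rose, and with library totals 2 fell and 1 rose. Markers of other cells also moved with age. Under each of 4 scalings, all 3 tested of 5 erythroid markers rose (308 to 774 CPM in neonatal libraries and 120 to 251 CPM in adult ones, summed), as did both endothelial markers (125 to 160 and 46.6 to 77.0 CPM) and all 3 tested of 6 stromal markers (114 to 170 and 37.1 to 84.0 CPM). Of the 6 tested of 7 epithelial markers 3 fell (2716 to 3446 and 3895 to 4519 CPM). With RLE or upper quartile scaling 2 of these markers fell and 1 rose, and with library totals 2 fell and 3 rose. Among 3 liver and muscle markers 1 rose (756 to 1596 and 249 to 408 CPM), 2 with library totals. The 2 myeloid markers had too few counts to test (3.48 to 8.53 and 2.85 to 9.10 CPM). No marker was at 0 in all 8 libraries, and their part in the results below was not tested.

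All 8 members passed the filter on low counts. Of the 8, 7 fell in neonatal cells and none rose by edgeR's quasi-likelihood test (Benjamini-Hochberg adjusted p under 0.05 over all 375 miRNAs tested), where 34.1% of all miRNAs tested were called lower, 29.1% higher and 63.2% in either direction. The median log2 fold change, neonatal over adult, was -0.60 over the 8 members and -0.05 over all miRNAs tested. Groups did not overlap for 5 of the 8 members and for 57.3% of all miRNAs tested. The 5 guide arms summed to 39640 ± 5891 CPM in neonatal libraries, against 65188 ± 7856 CPM in adult ones. In bulk samples, fewer cells that hold a miRNA and less of it per cell cannot be told apart. These directions depend on the scaling. With library totals in place of TMM the median over all miRNAs tested moved to 0.58, 2 members were called lower (miR-30b-5p and miR-30d-5p) and 1 higher (miR-30c-5p). All 8 members stayed below that median. A change of scaling moves all miRNAs by nearly the same amount (here 0.63 on average), so it could hardly have altered this. With RLE and upper quartile scaling the median over all moved to 0.07 and 0.15, and 5 and 4 members were called lower. Without neonatal library 1, neonatal library 3 or adult library 4 the number called lower was 4, and 5 without neonatal library 2 or adult library 2.

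**Figure D1:**
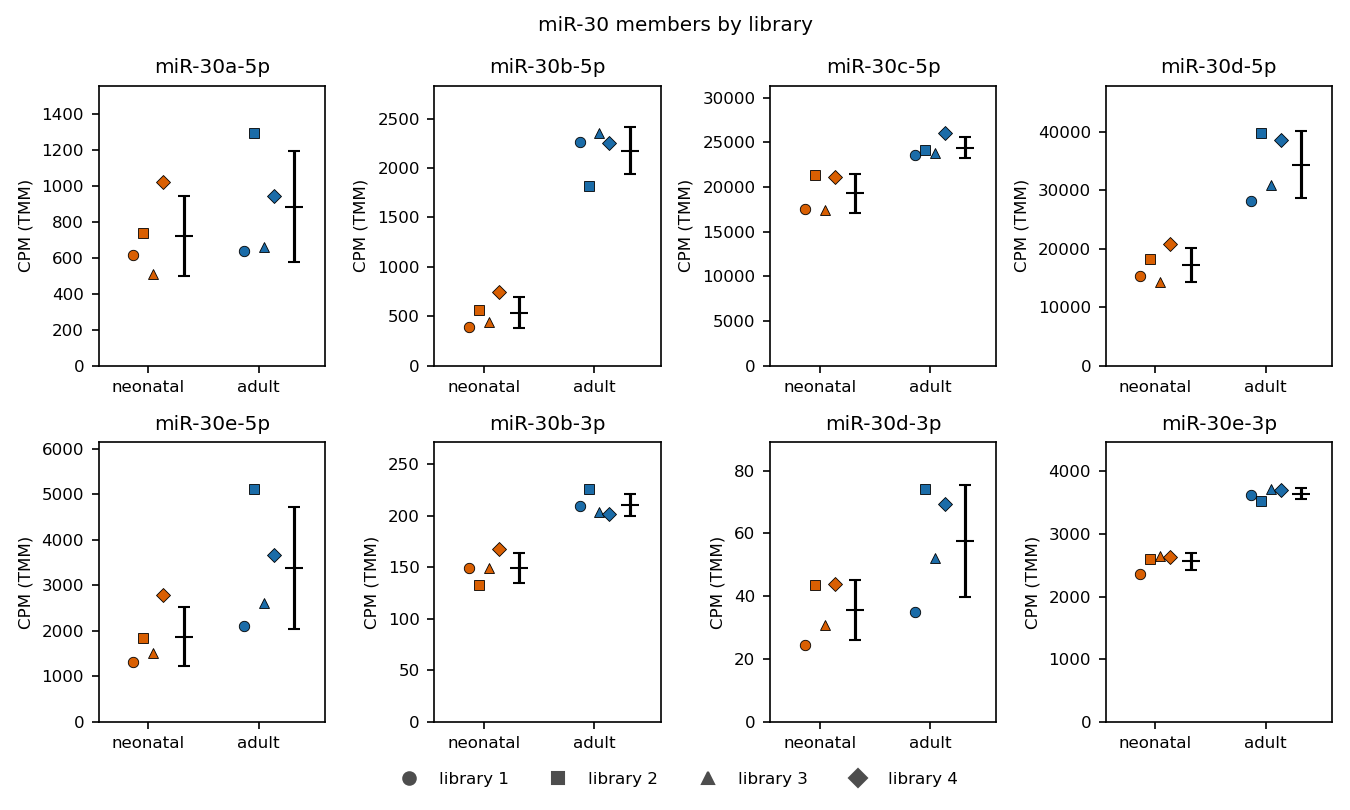
Level of each miR-30 member (CPM after TMM scaling, linear axes from 0) in the 4 neonatal and 4 adult libraries, with the library number as the marker shape and the mean ± SD of a group as the black bar. miR-30b-5p and miR-30d-5p are lower in every neonatal library than in any adult library, and miR-30e-3p varies little within either group.

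mmu-miR-30b-5p, a guide arm known in human melanoma as a promoter of invasion together with miR-30d, showed the largest difference among the members. It stood at 394, 566, 444 and 742 CPM in neonatal libraries 1 to 4, against 2262, 1823, 2359 and 2257 CPM in adult libraries 1 to 4. The highest neonatal library was below the lowest adult one. It averaged 537 ± 155 CPM in neonatal libraries and 2175 ± 240 CPM in adult ones, a log2 fold change of -2.02 ± 0.20 (SE; edgeR's adjusted p = 3.69e-06). Its call held under all 18 alternatives run for it, with log2 fold changes of -2.12 to -1.40, of which -1.40 was with library totals. Its passenger arm miR-30b-3p differed less, at 149, 132, 149 and 168 CPM in neonatal against 210, 226, 204 and 202 CPM in adult libraries, again without overlap. The log2 fold change of miR-30b-3p was -0.49 ± 0.14 (edgeR's adjusted p = 0.00908). It lost its call without neonatal library 2 (edgeR's adjusted p = 0.0607), without a filter (0.114) and with upper quartile scaling (0.0785), and turned to 0.14 with library totals (0.349).

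mmu-miR-30d-5p comes from the hairpin next to miR-30b and was among the 12 most abundant miRNAs of both groups. It stood at 15386, 18311, 14389 and 20729 CPM in neonatal against 28159, 39850, 30920 and 38537 CPM in adult libraries. All neonatal libraries were below all adult ones, and within each group libraries 2 and 4 were the higher ones. The mean was 17204 ± 2880 CPM in neonatal libraries and 34367 ± 5711 CPM in adult ones (log2 fold change -0.998 ± 0.16, edgeR's adjusted p = 0.00016). The call held under all 18 alternatives, the smallest change being -0.37 ± 0.14 with library totals (edgeR's adjusted p = 0.0356). miR-30d-3p, its passenger, was the rarest member, at 24.5, 43.5, 30.9 and 44.0 CPM in neonatal libraries and 35.0, 74.2, 52.3 and 69.3 CPM in adult ones, which overlapped. Its log2 fold change of -0.69 ± 0.27 passed (edgeR's adjusted p = 0.0381), but not without neonatal libraries 1 or 3 or adult libraries 2 or 4 (edgeR's adjusted p of 0.105 to 0.124), nor with RLE scaling (0.076), upper quartile scaling (0.0944), library totals (-0.07, 0.826) or DESeq2 (0.059).

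mmu-miR-30c-5p, known as a brake on connective tissue growth factor in the heart, is made from both miR-30c hairpins. Its levels were 17474, 21287, 17375 and 21105 CPM in neonatal libraries and 23558, 24155, 23742 and 26074 CPM in adult ones, a narrow gap without overlap. The mean of 19310 ± 2179 CPM in neonatal libraries and 24382 ± 1155 CPM in adult ones gave a log2 fold change of -0.34 ± 0.13 (edgeR's adjusted p = 0.034). Of the 7 calls it was the one lost under most settings, 10 of 20. These were the fits without each of the 4 neonatal libraries and without adult libraries 3 or 4 (edgeR's adjusted p of 0.0539 to 0.157), RLE scaling (0.13), upper quartile scaling (0.26), DESeq2 (0.0864) and no filter (0.241). With library totals it turned to 0.29 ± 0.11, a call as higher (edgeR's adjusted p = 0.0328). In the deposited table the rows of the miR-30c-1 and miR-30c-2 precursors held equal values in all 8 libraries, so the guide does not tell the genes apart. The rule by which its reads were divided between them is not given in the sources used here. Many of the equal values were fractional, such as 16373.17 in neonatal library 1 and 27899.5 in neonatal library 2. Counting each read in full at both hairpins would give whole numbers, so at least some reads were divided, and the rows were summed. The passenger arms differ in sequence. miR-30c-1-3p made up 71.6% ± 3.84 of both passengers in neonatal and 77.0% ± 3.69 in adult libraries.

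mmu-miR-30e-5p and mmu-miR-30a-5p, the guides that differ at 1 base, had the widest spread within groups. miR-30e-5p stood at 1328, 1837, 1520 and 2794 CPM in neonatal libraries and 2100, 5122, 2619 and 3675 CPM in adult ones, with neonatal library 4 above adult libraries 1 and 3. It fell by 0.85 ± 0.29 on the log2 scale (edgeR's adjusted p = 0.0189), a call lost without neonatal libraries 1 or 3 or adult libraries 2 or 4 (0.0525 to 0.0779) and with library totals (-0.23, 0.445). miR-30a-5p, the arm known to repress Becn1 in human cancer cells, stood at 616, 738, 508 and 1021 CPM in neonatal libraries and 640, 1296, 659 and 945 CPM in adult ones. Its groups overlapped, and a log2 fold change of -0.30 ± 0.26 did not pass (edgeR's adjusted p = 0.325). Nor did it pass under any of its 20 alternatives (edgeR's, DESeq2's and limma's adjusted p of 0.0535 to 0.902), and it turned to 0.32 with library totals.

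mmu-miR-30e-3p is the 3p arm known to act as a guide, with the mRNA of the NF-kB inhibitor IkB-alpha as a target in human glioma. It had the tightest values of the 8 members, at 2361, 2603, 2648 and 2632 CPM in neonatal libraries and 3615, 3531, 3720 and 3703 CPM in adult ones. The coefficient of variation was 5.27% in neonatal and 2.40% in adult libraries, against 34.8% and 39.5% for the 5p arm of the same hairpin and a median over all miRNAs tested of 20.3% and 22.9%. Its log2 fold change was -0.51 ± 0.12 (edgeR's adjusted p = 0.00267). Under 19 of 20 alternatives it was called lower, while with library totals it stood at 0.13 ± 0.11 (edgeR's adjusted p = 0.325).

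**Figure D2:**
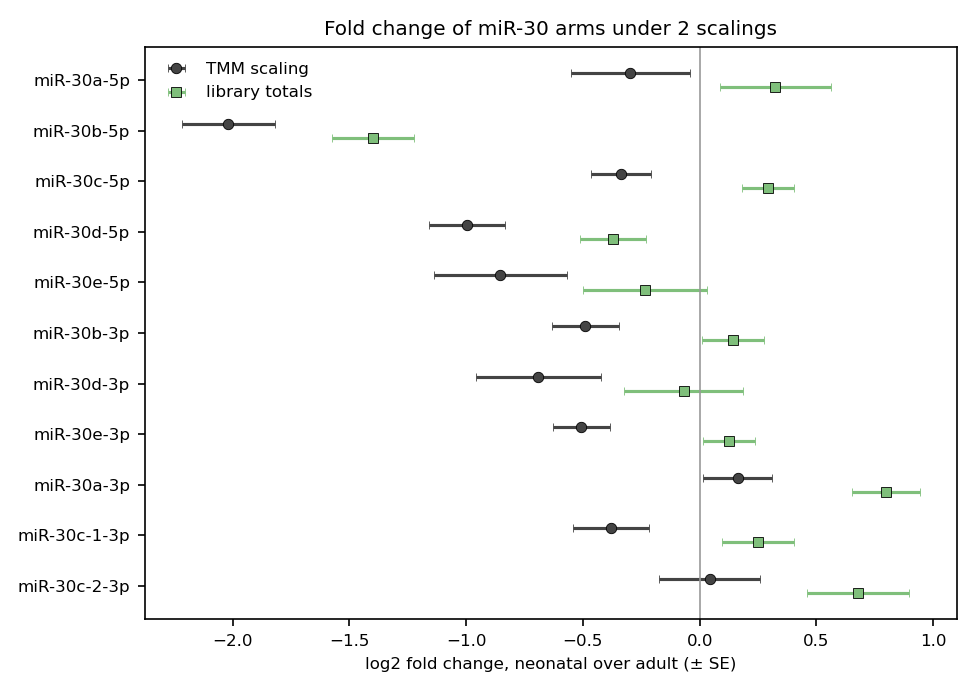
Log2 fold change, neonatal over adult, of the 8 members and of 3 further arms of the family, with standard errors, after TMM scaling (circles) and with library totals (squares). miR-30b-5p and miR-30d-5p lie below 0 under both scalings, while miR-30c-5p lies at -0.34 and 0.29.

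Further arms of the family, which are no members, were read in the same way. miR-30c-1-3p, from within Nfyc, stood at 66.2, 76.7, 72.3 and 78.0 CPM in neonatal libraries and 103, 86.1, 96.0 and 97.4 CPM in adult ones, without overlap. Its log2 fold change of -0.38 ± 0.16 missed the threshold (edgeR's adjusted p = 0.0574), and fell below it with limma-voom (0.0473), without the 10 most abundant miRNAs outside the family (0.0386) and with an offset for GC content (-0.70, 0.00132). The arms from chromosome 1 differed less. miR-30c-2-3p averaged 29.1 ± 4.35 CPM in neonatal libraries and 28.5 ± 5.16 CPM in adult ones (log2 fold change 0.04 ± 0.22, edgeR's adjusted p = 0.867). miR-30a-3p averaged 309 ± 39.7 and 276 ± 26.1 CPM (0.16 ± 0.15, edgeR's adjusted p = 0.353). With library totals miR-30a-3p and miR-30c-2-3p were called higher (0.80 and 0.68, edgeR's adjusted p of 0.000401 and 0.0158), and miR-30c-1-3p turned to 0.25. miR-30f, annotated on the strand opposite miR-30e, had 0 counts in all 8 libraries.

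Ratios between arms within a library do not depend on the scaling between libraries. The log2 ratio of 5p to 3p counts was tested with limma for the 82 hairpins whose arms were both tested. Of these, 42.7% changed (Benjamini-Hochberg adjusted p under 0.05), 20.7% towards the 5p arm and 22% towards the 3p arm, and the groups did not overlap for 37.8%. In the family 1 of 4 hairpins changed, miR-30b, and its groups alone did not overlap. Its guide outnumbered its passenger 2.64, 4.27, 2.98 and 4.41 times in neonatal libraries 1 to 4, against 10.8, 8.05, 11.6 and 11.2 times in adult libraries 1 to 4. Every neonatal ratio was below every adult one, and the log2 ratio was 1.80 ± 0.37 in neonatal and 3.36 ± 0.24 in adult libraries, a difference of -1.56 ± 0.23 (SE; limma's adjusted p = 0.000228). Leaving out 1 library at a time gave -1.68 to -1.43, with the call kept each time.

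The other hairpins did not pass in the same test. The guide of miR-30d outnumbered its passenger 620, 419, 462 and 469 times in neonatal libraries 1 to 4, against 794, 535, 589 and 554 times in adult libraries 1 to 4 (log2 difference -0.32 ± 0.21, limma's adjusted p = 0.237). The groups overlapped, but within same-numbered pairs the log2 ratio was lower in the neonatal library each time, with differences of -0.36, -0.35, -0.35 and -0.24. With the number as a block limma gave -0.32 ± 0.23 (adjusted p = 0.229), with a variance that it draws towards that of the other hairpins. For miR-30a the ratio was 2.19, 2.02, 1.64 and 3.65 in neonatal and 2.14, 4.79, 2.23 and 3.91 in adult libraries (log2 difference -0.44 ± 0.31, limma's adjusted p = 0.287). For miR-30e the arms were closest in level, with a ratio of 0.562, 0.706, 0.574 and 1.06 in neonatal and 0.581, 1.45, 0.704 and 0.992 in adult libraries. Its log2 difference of -0.32 ± 0.27 missed the threshold (limma's adjusted p = 0.381), whereas a fit that blocked on library number placed it below the threshold (-0.32 ± 0.14, limma's adjusted p = 0.043). Whether the change of the miR-30b ratio differs from that of the other hairpins was not tested.

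**Figure D3:**
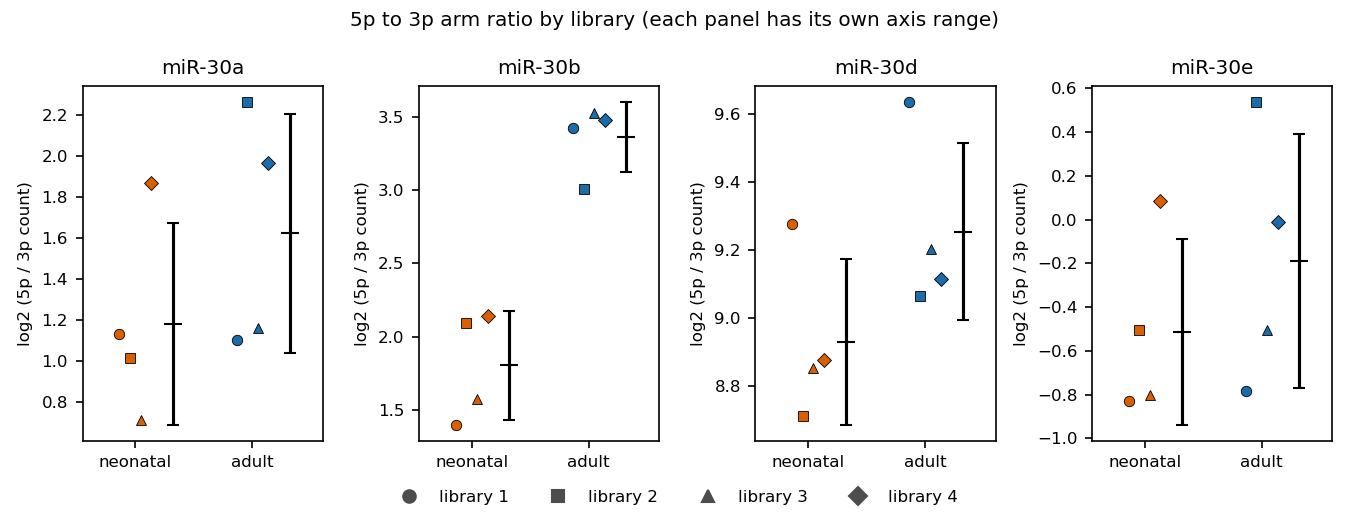
Log2 ratio of 5p to 3p counts of 4 miR-30 hairpins in the neonatal and adult libraries, with library numbers as marker shapes and group mean ± SD as black bars; each panel has its own range. The miR-30b ratios of neonatal and adult libraries are apart, while those of miR-30a, miR-30d and miR-30e overlap.

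The guide arms did not move by equal amounts. Of the 10 pairs that the 5 guides form, the log2 ratio of counts differed between ages for 7 by an exact permutation test (two-sided, p = 0.0286 each, the smallest that 4 against 4 libraries allow, and 0.0408 adjusted over the 10 pairs). miR-30b-5p moved against each of the other guides, and its log2 ratio to miR-30c-5p was -5.20 ± 0.27 in neonatal and -3.49 ± 0.18 in adult libraries. Some reads may be shared between the rows of these 2, as given under the processing, and the effect on this ratio was not tested. Against miR-30d-5p, from the neighbouring hairpin, the ratio of miR-30b-5p was -5.03 ± 0.20 and -3.97 ± 0.38. For the most abundant pair, the log2 ratio of miR-30c-5p to miR-30d-5p was 0.18, 0.22, 0.27 and 0.03 in neonatal and -0.26, -0.72, -0.38 and -0.56 in adult libraries, so that miR-30c-5p was the higher in all neonatal and miR-30d-5p in all adult libraries. That order rests on the sum of both equal miR-30c rows: with 1 row the log2 ratio was -0.83 ± 0.11 in neonatal and -1.48 ± 0.20 in adult libraries, below 0 in both and with the same difference of 0.66. miR-30a-5p gained on miR-30d-5p and on miR-30e-5p, by 0.71 and 0.55 on the log2 scale. The pairs that did not pass were miR-30a-5p to miR-30c-5p (0.06, exact permutation p = 0.829), miR-30c-5p to miR-30e-5p (0.49, p = 0.171) and miR-30d-5p to miR-30e-5p (-0.17, p = 0.429). Within same-numbered libraries the ratio of miR-30c-5p to miR-30e-5p was higher in the neonatal one, by 0.23, 1.3, 0.33 and 0.09 (exact sign-flip p = 0.125). That p is the smallest that 4 pairs allow, so the sign-flip test cannot decide whether this ratio changed. The groups of the 7 pairs that passed did not overlap with all 8 libraries, so leaving 1 out could not make them overlap. The exact permutation p was then 1 or 2 of 35 divisions (0.0286 or 0.0571), a coarse step. Without any 1 adult library all 7 pairs were at 0.0286 (adjusted p = 0.0408, exact permutation). Without any 1 neonatal library 3 to 5 of them were at 0.0571, which put the adjusted p of all 7 at 0.0714 to 0.0816 (exact permutation), so no pair passed there, and at this resolution the loss does not show that the differences rest on 1 library.

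**Figure D4:**
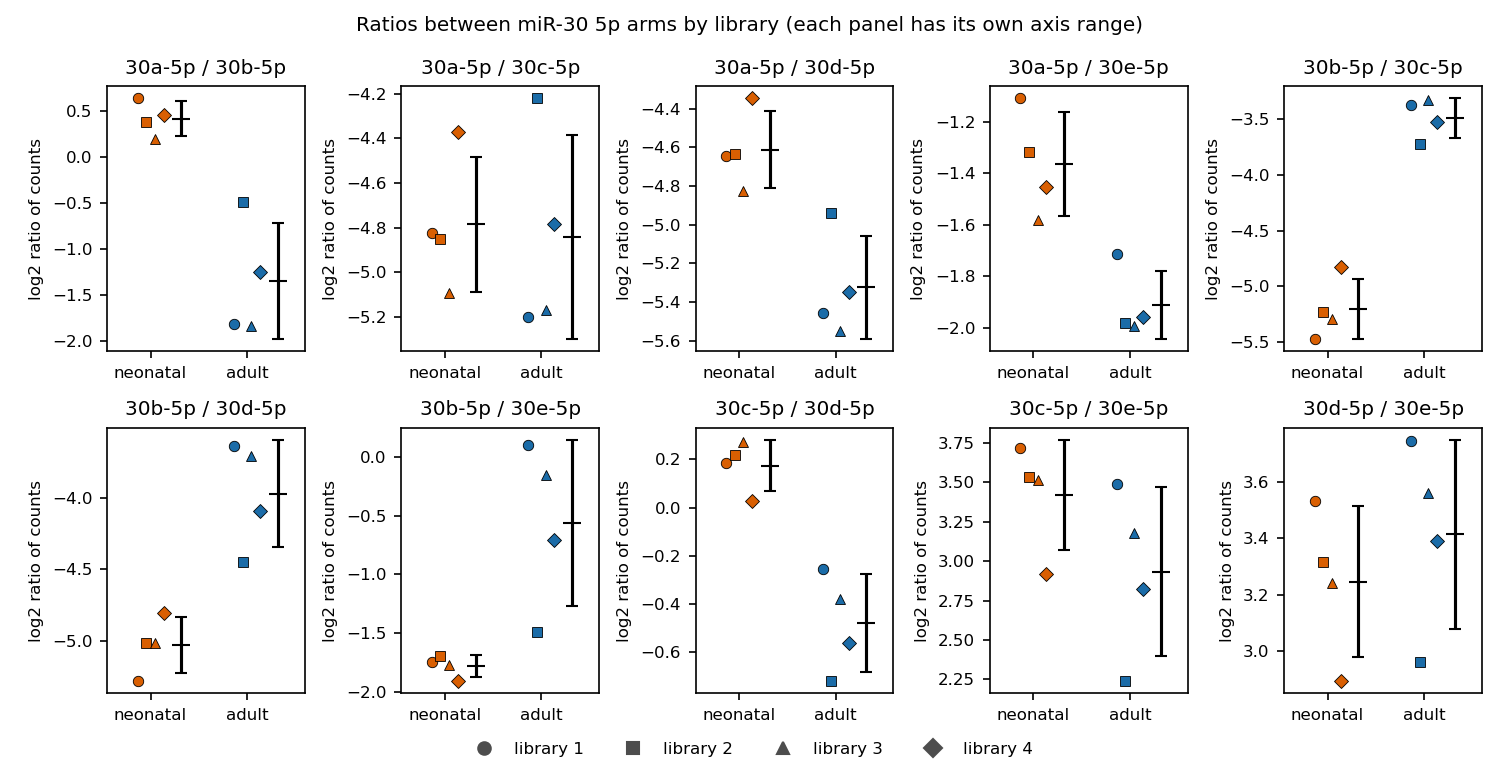
Log2 ratio of counts for the 10 pairs of miR-30 guide arms in the neonatal and adult libraries, with library numbers as marker shapes and group mean ± SD as black bars; each panel has its own range. The neonatal and adult libraries do not overlap in the 7 panels that passed, such as miR-30c-5p over miR-30d-5p, which, with both miR-30c rows summed, is above 0 in all neonatal and below 0 in all adult libraries.

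The make-up of the guide pool is described here without a test. miR-30c-5p took 48.9% ± 2.34 of the counts of the 5 guides in neonatal and 37.7% ± 3.52 in adult libraries, or 32.4% and 23.3% where 1 of its equal rows was used. miR-30d-5p took 43.3% ± 1.14 and 52.5% ± 2.49, miR-30e-5p 4.63% ± 0.97 and 5.07% ± 1.47, miR-30a-5p 1.79% ± 0.299 and 1.33% ± 0.323, and miR-30b-5p 1.34% ± 0.198 and 3.40% ± 0.692. All 5 guides together made up 4.91% ± 0.489 of all counts in neonatal and 5.23% ± 0.613 in adult libraries. Ligation in library making prefers some sequences, so shares of different miRNAs are shares of counts, not of molecules. Mature miRNAs are of nearly the same length, so CPM was compared between members without a correction. By mean CPM the members ranked miR-30c-5p, miR-30d-5p, miR-30e-3p, miR-30e-5p, miR-30a-5p, miR-30b-5p, miR-30b-3p and miR-30d-3p in neonatal libraries. The libraries of neighbours in that order overlapped for miR-30c-5p and miR-30d-5p, for miR-30e-3p and miR-30e-5p and for miR-30a-5p and miR-30b-5p. In adult libraries miR-30d-5p came first and miR-30b-5p stood above miR-30a-5p, and the libraries of miR-30e-5p overlapped those of both its neighbours, miR-30e-3p above and miR-30b-5p below.

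Part of the spread within groups followed the library number. Libraries 2 and 4 were both above libraries 1 and 3, in neonatal and in adult libraries alike, for 5 of the 8 members (miR-30a-5p, miR-30c-5p, miR-30d-5p, miR-30d-3p and miR-30e-5p) and for 79 of the 375 miRNAs tested (21.1%). miR-30b-5p showed this order in neonatal libraries only, and adult library 2 was its lowest adult library. This order was set with the values known, and other orders were not counted, so the shares do not show a trait of the family. What the numbers stand for is not given in the labels. With the number as a block all 7 members called lower were called lower as well.

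The miRNAs with the pattern most like that of the summed guides, by Euclidean distance between mean-centred log2 CPM over the 8 libraries, were let-7f-5p (distance 0.248), let-7g-5p (0.277), miR-203-3p (0.342), let-7c-2-3p (0.353) and let-7a-1-3p (0.353), where the median distance over the 375 miRNAs was 1.73. let-7f-5p and let-7g-5p belong to a family known to hold back proliferation genes, and miR-203-3p, known from skin, is also on the list of epithelial markers. Pearson's r with the summed guides was 0.956 to 0.989 for these 5, over 8 libraries that share the age groups. let-7f-5p averaged 74783 ± 7487 CPM in neonatal libraries and 131830 ± 17785 CPM in adult ones. let-7c-2-3p and let-7a-1-3p had nearly the same level in every library, such as 273 CPM for both in neonatal library 1. These 2 may thus not be separate neighbours, and whether their rows share reads was not tested. Of the members themselves miR-30d-5p was closest (0.414) and miR-30b-5p farthest (1.99). The sum contains the guides, with 43.3% of its neonatal and 52.5% of its adult counts from miR-30d-5p. From miR-30b-5p came 1.34% and 3.40%, so the distances of the guides are in part built in.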

How the data were processed

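Small RNA was sequenced from 4 neonatal and 4 adult samples after RNA isolation with Trizol and library preparation with the NEBNext kit, per the labels' protocols. The authors deposited a table of estimated counts, without normalization, with a row for each pair of mature miRNA and hairpin. The genome build was mm10 per the submitters' processing notes. The sources used here do not give the aligner, the counter, its mismatch allowance or how shared reads were divided. Of the non-zero values 71.4% were whole within 0.001, and of the 96 non-zero values in rows of the family 50% were. Reads of near-identical members (miR-30a-5p and miR-30e-5p) may not be fully separated. The values of miR-30b-5p were fractional in most libraries, such as 738.67 in neonatal library 1, so some of its reads were shared with other rows. Where miR-30b-5p ended in a fraction, both miR-30c-5p rows did too, such as 738.67 beside 16373.17 in neonatal library 1. In neonatal library 4 the values were 2074.33 and 29508.83. Reads divided in 3 between miR-30b-5p and the 2 miR-30c-5p rows would give such fractions. How many reads were shared, and the effect on the fold change and ratios of miR-30b-5p, was not tested.

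Rows were summed over precursors and rounded. Counts were tested with edgeR 4.0.16 (glmQLFit and glmQLFTest, robust, R 4.3.3) after TMM scaling (factors 1.16 to 1.30 in neonatal, 0.788 to 0.812 in adult libraries) and filterByExpr (minimum count 10, total 15), which left 375 miRNAs, with Benjamini-Hochberg adjustment and a threshold of 0.05. The biological coefficient of variation was 21.4%. Arm ratios, log2 of 5p over 3p counts with 0.5 added to each, were tested with limma 3.58.1 (trend, robust), and ratios between guides with two-sided exact permutation over 70 divisions of the libraries. Scripts were tested on simulated data. Alternatives were RLE, upper quartile and total scaling, other filters, DESeq2 1.42.0, limma-voom, 1 precursor row, an offset for GC content, a replicate block and leaving out each library. The floor of 3 counts covers counting error only. No pair of replicates agreed within counting noise (chi-square over its degrees of freedom, 15.7 to 362).

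The replicate numbers come from the sample titles. After subtracting group means, libraries of the same number correlated with r of 0.256 to 0.415. Libraries of other numbers ranged from -0.53 to 0.48, so these values do not show that the numbers mark pairs. The main tests did not pair libraries, and the number was used as a block or pair in alternatives only. The text names all 8 members, the other arms of the family, and the 5 miRNAs nearest to the summed guides. The members and lists were chosen with earlier results of these data known.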

Additional observations from a re-analysis of the deposited data

Results flagged for a closer look

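Among 50 sets of 4 libraries (levels, arm ratios and guide ratios of the family), 2 held a library far from the other 3, where chance flags about 1 in 20. miR-30e-3p stood at 2361 CPM in neonatal library 1, against 2603 to 2648 CPM in the other neonatal libraries, a gap of 0.844 of the range. The log2 ratio of miR-30a-5p to miR-30e-5p was -1.71 in adult library 1, a gap of 0.884 of the range to the other adult libraries, which lay between -1.99 and -1.96.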

How the results depend on the processing

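With library totals, 186 miRNAs were called higher (73.2% of the calls, against 46.0%) and 68 lower, with 2 members lower and 1 higher, and miR-30a-5p, miR-30b-3p, miR-30c-5p and miR-30e-3p turned to 0.32, 0.14, 0.29 and 0.13 (log2). With upper quartile scaling 4 members were lower. Leaving out 1 library gave 4 to 7 members lower and 0 to 7 guide pairs past the threshold. The number of pairs was 0 without any 1 neonatal library, where p moves in steps of 1 in 35. With 1 library left out the difference in log2 ratio of miR-30a-5p to miR-30c-5p lay between -0.080 and 0.27. It was below 0 without neonatal library 4 or adult libraries 1 or 3. With 1 precursor row, miR-30c-5p took 32.4% and 23.3% of guide counts in neonatal and adult libraries, miR-30d-5p 57.3% and 64.7%, miR-30b-5p 1.77% and 4.20%, and, in neonatal libraries, miR-30a-5p 2.37% and miR-30e-5p 6.12%. The causes of these changes were not tested, apart from the use of 1 row itself. The replicate block brought the miR-30e arm ratio past the threshold (-0.32, limma's adjusted p = 0.043), changed no call of a member or other hairpin and called 265 miRNAs, against 237; its exact sign-flip test of guide pairs cannot go below p = 0.125 and says nothing about them. The GC offset could be fitted for 4 of 8 members (86.7% of all tested) and kept their calls. In all, of 170 values under alternatives that answer a comparison 149 held, 20 moved and 1 passed the threshold newly. Here a count that stayed near the main one was taken as held, such as 5 members lower with RLE scaling against 7. Of 252 values of single members and guide pairs 184 held, 61 kept the direction but no longer passed, and 7 turned. At 24.5 to 74.2 CPM, miR-30d-3p is the member most limited by depth.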
